A study of Homo sapiens and Mus musculus with 69 samples.

Results

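The comparison described here is that of H82 cells with and without *REST* KO while both were held in doxycycline to express the *NOTCH1* intracellular domain (*N1ICD*), and it rests on 6 of the 69 RNA-Seq libraries of the series, 3 for each genotype, chosen by their labels. H82 is a human small cell lung cancer (SCLC) line of the NEUROD1 type, grown in culture. All 6 libraries come from cells that carry a lentiviral, doxycycline-inducible *N1ICD* vector, and all 6 were labelled as treated with doxycycline (dox). The group called intact here (libraries 7, 8 and 9) has no further change, and the *REST* KO group (libraries 31, 32 and 33) was also edited with CRISPR-Cas9 at *REST*. The same 2 genotypes without dox, parental cells and a pair of groups labelled STING_KO complete the 21 H82 libraries, in 7 groups of 3 libraries. The study describes the *N1ICD* expression of this comparison as long-term and gives the same number of days for cells with and without *REST* KO. Its methods state that the cells taken after dox in overexpression experiments were the adherent ones, which also bears on comparisons with cells without dox. The labels give neither the days in dox of each group, the clone or clones sequenced, nor whether the 3 libraries of a group are separate cultures, so the *P* values measure the spread between libraries, which may be technical. The line, the clonal history, the vector dose and the library preparation of the KO group cannot be told apart from the edit of *REST*.

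REST is a zinc finger repressor that binds a DNA element called RE1 and recruits the corepressors SIN3 and RCOR1, which bring histone deacetylases and the demethylase KDM1A (LSD1) to genes of neurons. In most non-neuronal cells it keeps these genes low, and it is low in neurons and in neuroendocrine tumors, which express synaptic vesicle and secretory granule proteins. Notch receptors, once cleaved, release an intracellular domain that enters the nucleus and activates target genes such as those of the HES and HEY families, and in SCLC *REST* is among the genes that rise with Notch signaling. The comparison asks which genes stay low under *N1ICD* only while *REST* is intact.

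All gene values are log2(RPKM + 1), where RPKM is reads scaled for gene length and library size, so a value of 0 is no read and a step of 1 is about a doubling for a well-expressed gene. A gene was called higher or lower when its limma adjusted *P* was below 0.05 and its log2 fold change was 1 or more in size, over 13903 tested genes. Fold changes on this scale understate those of genes near 0. With dox, 1312 genes (9.44%) were higher in *REST* KO and 1141 (8.21%) were lower, and the median over all tested genes was -0.06. Libraries 31 and 32 were nearer to each other (root mean square difference 0.31 over the tested genes) than to library 33 (0.59 and 0.61), libraries 7 and 9 were nearer (0.35) than either was to library 8 (0.57 and 0.60), and libraries of different genotype differed by 0.88 to 1.16. The steps between the lowest values put the relative sizes of the 6 libraries between 0.991 and 1.35 when 1 is the middle of all 60 human libraries, and read counts are not used here.

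The RE1 element is known by a long consensus, of which the core has a left piece, CAGCACC, then 3 free bases, then a right piece, GACAGC. This core was searched on both strands of the GRCh37 genome within 5000 bases of the annotated start of 13800 of the tested genes, and 65 of them (0.471%) held it without a mismatch. The windows below are printed because they lie at genes whose levels are described below, and they run 5′ to 3′ on the strand given, with the core in capitals.
CHRNB2 (chr1:154540425-154540454, plus strand, non-coding part of an exon): gcggcttCAGCACCACGGACAGCgccccac
PTPRN (chr2:220173037-220173066, minus strand, intron): agagcttCAGCACCGCGGACAGCgccagcg
CHGA (chr14:93389863-93389892, plus strand, intron): gagttttCAGCACCGCGGACAGCgcctccg
XKR7 (chr20:30556388-30556417, plus strand, coding exon): ccgccatCAGCACCAAGGACAGCgccggcg
INA (chr10:105038761-105038790, minus strand, intron): tcgagatCAGCACCGTGGACAGCgccccga
KCNK12 (chr2:47798600-47798629, plus strand, upstream): ccggcgtCAGCACCGCGGACAGCgcatcgg
SYP (chrX:49056577-49056606, minus strand, intron): cgcgctcCAGCACCGTGGACAGAgcccgcc
The first 6 hold the core without a mismatch and *SYP* holds it with 1 mismatch, in the right piece. *XKR7* holds a second core without a mismatch in the same coding exon (chr20:30556352-30556381). A match of letters is a description of the sequence, not a measurement of REST binding.

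Of the 65 genes with a core without a mismatch, 31 (47.7%, exact 95% binomial interval 35.1% to 60.5%) were called higher in *REST* KO with dox, against 9.44% of all tested genes, and 2 (3.08%), *NPPB* and *FAM86B3P*, were called lower, against 8.21%. Their median log2 fold change was 0.93. The interval treats the genes as independent, but all were measured in the same 6 libraries, so it does not measure how the KO would repeat. Read the other way, 2.38% of the genes called higher held the core, against 0.176% of those called lower and 0.282% of those not called. The 32 genes with a core that were not called include *ELAVL3* (0.86), which encodes a neuronal RNA-binding protein, and *CELF3* (0.38), named here after their values were seen. Of the 31 genes called higher, 26 had the core within 2000 bases of the start, and it lay in an intron in 13 and upstream of the gene in 11. With 1 mismatch allowed, 543 genes held a core and 127 of them (23.4%) were called higher. The search used neither the expression values nor the gene lists.

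**Figure D1:**
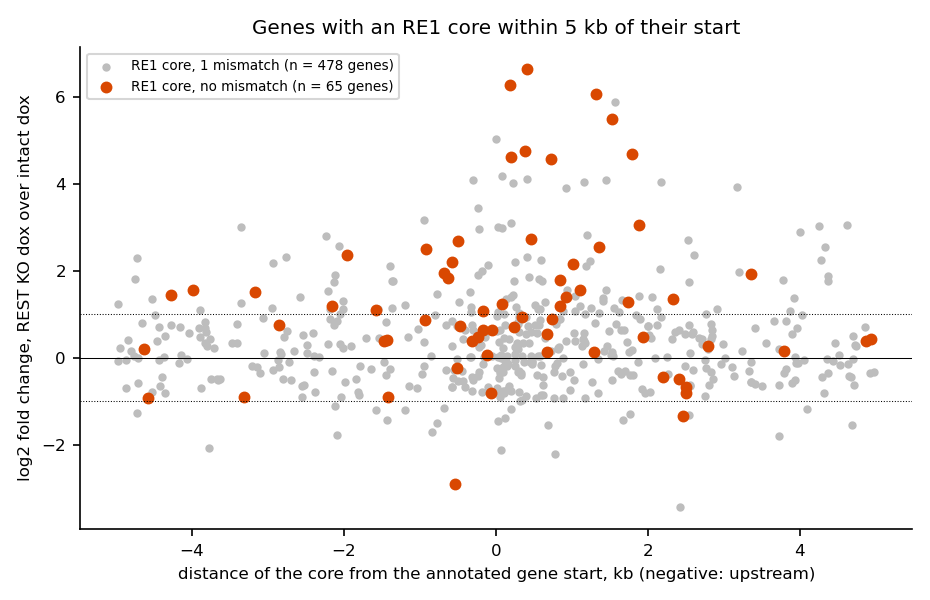
Log2 fold change (REST KO dox over intact dox, vertical axis) of each gene with an RE1 core within 5 kb of its annotated start, against the distance of the core from the start in kb (horizontal axis, negative upstream). Orange points are the 65 genes with a core without a mismatch and grey points the genes with 1 mismatch; the dotted lines mark log2 fold changes of 1 and -1, and 31 orange points were called higher and 2 lower.

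*REST* mRNA was 6.48, 6.13 and 6.33 in the intact libraries and 4.95, 4.95 and 5.89 in the *REST* KO libraries, so the groups did not overlap but library 33 stood near the intact level. The log2 fold change was -1.05 (SE 0.22, limma adjusted *P* = 0.00114), and it lay between -0.96 and -0.89, short of the threshold, when library 7, 31 or 32 was left out. A CRISPR edit can stop the protein and leave the transcript, so the mRNA does not check the KO labels. The study shows an immunoblot of single-cell KO clones of H82, and the labels do not say whether those clones were sequenced. Of the 18 genes for REST cofactors and *REST* itself, only *SIN3B*, a scaffold of the SIN3 complex, was called higher (1.12, falling to 0.98 without library 8) and only *REST* lower. The deacetylase *HDAC1* (log2 fold change -0.83) and the demethylase *KDM1A* (-0.01) were not called.

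*NOTCH1* mRNA, which sums the vector and the endogenous gene, was 4.75, 4.26 and 5.56 in the intact libraries and 8.75, 9.15 and 10.74 in the *REST* KO libraries. The KO libraries were thus all higher, by 4.69 (SE 0.44, limma adjusted *P* = 2.06e-07), and library 33 was the highest. Without dox the 2 genotypes held similar values, 1.45, 0.88 and 1.15 in intact cells and 1.28, 1.21 and 1.47 in *REST* KO (log2 fold change 0.16, SE 0.44, limma adjusted *P* = 0.867). Of 32 tested genes of Notch receptors, ligands and targets, 10 (31.2%) were higher and 2 (6.25%) lower in *REST* KO with dox, against 9.44% and 8.21% of all genes. *NOTCH1* itself is among the 10. Others called higher included *HES4* (2.54) and *HEYL* (2.71), transcriptional repressors of the Notch pathway, and *DTX1* (3.01), a regulator of Notch itself. *HES1*, the best-known Notch target, was 6.16, 4.56 and 5.69 in the intact libraries and 4.42, 4.33 and 4.67 in the KO libraries, and was not called (-0.996, SE 0.34, limma adjusted *P* = 0.0288), although it was past the threshold at -1.45 without library 8 and at -1.09 without library 33. *REST* KO and the level of *NOTCH1* mRNA move together in the dox-treated libraries and cannot be told apart within them.

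A list of 55 genes known as REST-type targets of neurons and endocrine cells was drawn up from general knowledge, and 45 of them passed the filter on low values. This list, like the others, was chosen with earlier results of these data known, so its counts are a description. With dox, 34 of the 45 (75.6%) were higher in *REST* KO and 1 (2.22%) was lower, against 9.44% and 8.21% of all tested genes, and their median log2 fold change was 2.50 against -0.06. The log2 fold change was above 0 for 44 of the 45. Of these 45 genes, 9 held an RE1 core without a mismatch and 24 held one with at most 1 mismatch. The 10 that were not called ranged up to *FGF12* at 0.96, and the highest expressed among them were *GDAP1* (0.65) and *CDK5R1* (0.77). The lists that follow share members with this one. The 34 genes became 32 without library 8 or without library 33, the lowest count among the fits that left out 1 library.

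**Figure D2:**
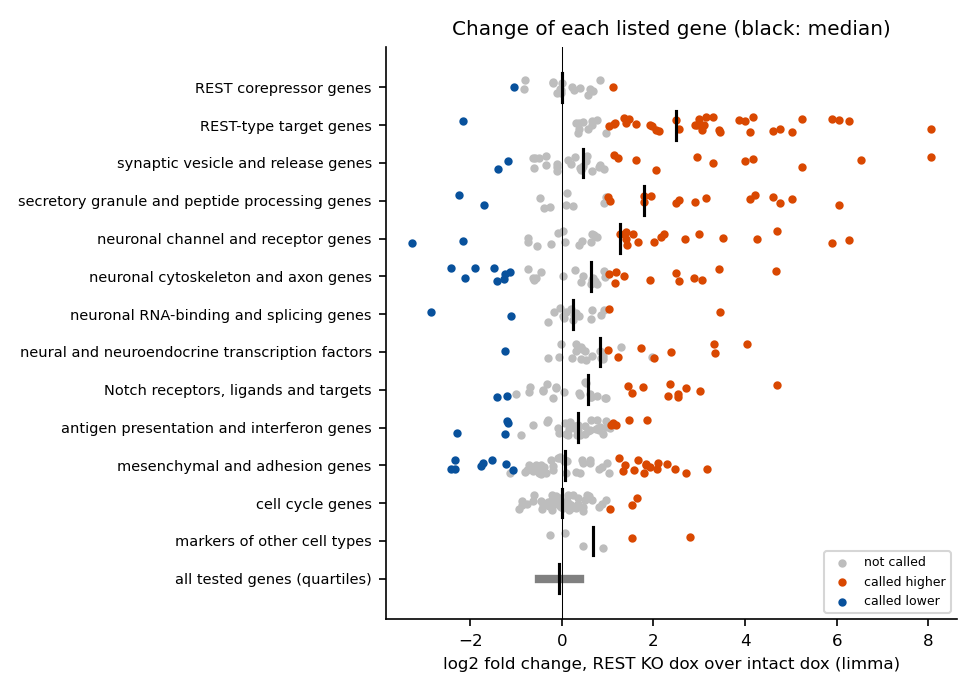
Log2 fold change between REST KO and intact cells with dox (horizontal axis) for every tested member of each gene list (1 point per gene, orange called higher, blue called lower, grey not called), with the list median in black and the quartiles of all tested genes as a bar. The REST-type, secretory granule and channel lists lie furthest to the right, with medians of 2.50, 1.80 and 1.26.

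Synaptic vesicles release transmitter through proteins that dock, prime and fuse them. *SYP*, which encodes synaptophysin, a membrane protein of these vesicles used as a diagnostic marker of SCLC, was 0.78, 0.94 and 1.26 in the intact libraries and 5.08, 5.25 and 5.17 in the KO libraries. The groups were far apart, and *SYP* rose by 4.17 with *REST* KO (SE 0.23, limma adjusted *P* = 1.85e-10). Complexin 1, encoded by *CPLX1* (chromosome 4, 778745 to 819917), clamps and then speeds vesicle fusion, and its gene was 0.70, 0.49 and 0.00 in intact cells and 8.41, 8.43 and 8.53 in *REST* KO. Its log2 fold change of 8.06 (SE 0.23, limma adjusted *P* = 5.33e-14) was the largest positive one among the genes named by the rule. *CPLX2*, its paralog, was 0.46, 0.19 and 0.18 against 6.69, 6.78 and 6.97. *UNC13A*, a priming factor, was 1.06, 0.84 and 0.98 against 6.22, 6.30 and 6.06, again without overlap (log2 fold change 5.23, SE 0.26, limma adjusted *P* = 5.71e-11).

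The list of 35 tested synaptic vesicle genes was nevertheless mixed. It had 11 genes called higher (31.4%, against 9.44% of all genes), 2 called lower (5.71%, against 8.21%) and 22 not called, with a median of 0.46. *SYT11* (-1.40), an atypical synaptotagmin, was lower, at 7.43, 7.64 and 7.36 in intact cells and 5.98, 6.13 and 6.12 in *REST* KO. *VAMP2*, a core protein of the fusion machinery, was 6.42, 6.31 and 6.62 against 6.77, 6.74 and 6.28, and its groups overlapped. *UNC13B*, the broadly expressed relative of *UNC13A*, was 8.03, 6.89 and 7.76 against 7.14, 7.21 and 6.44 and was not called either.

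Among 25 tested genes of secretory granules and peptide processing, 15 (60%) were higher and 2 (8%) lower in *REST* KO, against 9.44% and 8.21% of all genes, with a median of 1.80. *CHGA* encodes chromogranin A, the main granule protein and a serum marker of neuroendocrine tumors, and it was 0.30, 0.34 and 0.58 in intact cells and 5.43, 5.41 and 4.67 in *REST* KO (log2 fold change 4.76, SE 0.34, limma adjusted *P* = 9.47e-09). *CHGB*, for chromogranin B, was 0.81, 0.56 and 0.85 against 5.63, 5.72 and 4.71. *PTPRN*, for the granule membrane protein IA-2, was 3.21, 2.49 and 2.22 against 8.87, 8.88 and 8.35. In these 3 genes library 33 was the lowest of the KO libraries and still above every intact library. Of the KO libraries it held both the most *NOTCH1* and the most *REST* mRNA (5.89). *SCG5*, for the prohormone convertase chaperone 7B2, went the other way, at 3.15, 4.01 and 3.51 against 1.85, 1.43 and 0.65 (log2 fold change -2.25). *PAM*, for the enzyme that amidates peptide hormones, was not called (0.12).

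Among 31 tested genes of neuronal channels and receptors, 16 (51.6%) were higher and 2 (6.45%) lower, against the same 9.44% and 8.21%, with a median of 1.26. *CHRNB2*, a nicotinic acetylcholine receptor subunit, was 3.77, 3.17 and 3.78 in intact cells and 9.78, 9.92 and 9.85 in *REST* KO. The 3 KO libraries lay within a narrow range and the log2 fold change was 6.27 (SE 0.29, limma adjusted *P* = 3.47e-11). *KCNC1*, for a fast potassium channel, was 2.64, 1.53 and 3.32 against 8.14, 8.34 and 8.71, and *HCN2*, for a pacemaker channel, was 0.00, 0.59 and 0.88 against 4.88, 5.10 and 5.56. The 2 that fell were *SCN2A* and *GRIA1*. *SCN2A*, for a neuronal sodium channel and the subject of much work on REST, was 2.56, 2.69 and 3.07 in intact cells and 0.74, 0.85 and 0.22 in *REST* KO, the one member of the REST-type list called lower (-2.17, SE 0.21, limma adjusted *P* = 2.98e-07). *GRIA1*, a glutamate receptor subunit, was 5.60, 5.31 and 5.90 against 3.01, 2.62 and 1.40.

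The 35 tested genes of the neuronal cytoskeleton and axon were split, with 11 (31.4%) higher and 8 (22.9%) lower, against 9.44% and 8.21% of all genes, and a median of 0.65. *INA*, for a neuronal intermediate filament, was 2.99, 2.75 and 2.82 in intact cells and 5.75, 5.74 and 6.22 in *REST* KO. *STMN2* (3.44), a regulator of microtubules in growing axons, and *GDAP1L1* (4.68), a paralog of the mitochondrial gene *GDAP1*, also rose. *MAP6* (-2.42), which stabilizes microtubules, *STMN1* (-2.11), the stathmin of dividing cells, and *DCX* (-1.89), of migrating neurons, fell. *UCHL1* (-1.48) also fell, but its value was -0.996 and short of the threshold without library 33. Of 19 tested neuronal RNA-binding and splicing genes, 2 (10.5%) rose and 2 (10.5%) fell, near the 9.44% and 8.21% of all genes. *SRRM3*, an activator of neuronal microexons, was 2.53, 1.88 and 2.52 against 5.65, 5.86 and 5.81, and its relative *SRRM4*, itself known to act on *REST* splicing, was 0.02, 0.01 and 0.04 against 0.91, 1.03 and 1.23 (1.03, reaching 0.73 under quantile normalization and 0.95 without library 33, both short of the threshold). *ESRP1*, an epithelial splicing factor, fell by 2.85 on the log2 scale.

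Of 27 tested neural and neuroendocrine transcription factors, 8 (29.6%) rose and 1 (3.7%) fell, against 9.44% and 8.21% of all genes, with a median of 0.84. *INSM2*, a zinc finger factor of endocrine cells, was 0.19, 0.19 and 0.49 in intact cells and 4.19, 4.48 and 4.33 in *REST* KO. *MYT1* (2.39), a neural zinc finger factor, also rose, as did *ID3* (3.35) and *ID4* (3.33), which inhibit basic helix-loop-helix factors. *SOX4* fell (-1.23). *NEUROD1*, the factor that defines the type of this line, was 4.45, 4.33 and 5.38 in intact cells and 5.12, 5.69 and 7.25 in *REST* KO, and its groups overlapped (1.30, SE 0.76, limma adjusted *P* = 0.188). *INSM1*, a neuroendocrine zinc finger factor, stayed near the floor in both, at 0.23, 0.32 and 0.63 against 0.29, 0.67 and 1.48. *NCAM1*, an adhesion molecule used with them to mark SCLC, was 2.22, 2.06 and 2.62 against 3.06, 3.47 and 2.32 and was not called.

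Before dox, *NEUROD1* stood at 13.03, 14.41 and 14.00 in intact cells and at 14.19, 14.22 and 13.62 in *REST* KO, the high level that the NEUROD1 type of the line has. With dox, *NEUROD1* fell in both genotypes (log2 fold change -9.10 in intact cells and -7.99 in *REST* KO, SE 0.76 each), and the difference between the 2 falls, 1.11 (SE 1.07), was not called (limma adjusted *P* = 0.53). *YAP1*, a marker of non-neuroendocrine SCLC, was 7.07, 6.85 and 6.88 in intact cells with dox and 6.40, 6.75 and 6.75 in *REST* KO and was not called. Without dox *YAP1* was lower in *REST* KO, at 2.60, 2.65 and 3.02 against 4.36, 4.598 and 4.14 (-1.61, SE 0.17, limma adjusted *P* = 9.78e-06), and its response to dox was larger in *REST* KO by 1.31 (SE 0.24, limma adjusted *P* = 0.000819). Of 23 markers of blood, endothelial, lung, glial and other cells in the table, 17 stayed under a log2 value of 1 in all 6 libraries, but the sum of their RPKM was 7.55 to 10.7 in intact and 19.7 to 29.7 in *REST* KO cells with dox. *HBA1* (2.80), for alpha globin, was called higher. The part of these markers in the other results was not tested. The defining markers *PTPRC*, *CD3E*, *CDH5* and *MOG* were under 0.06 in all 6 libraries.

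**Figure D3:**
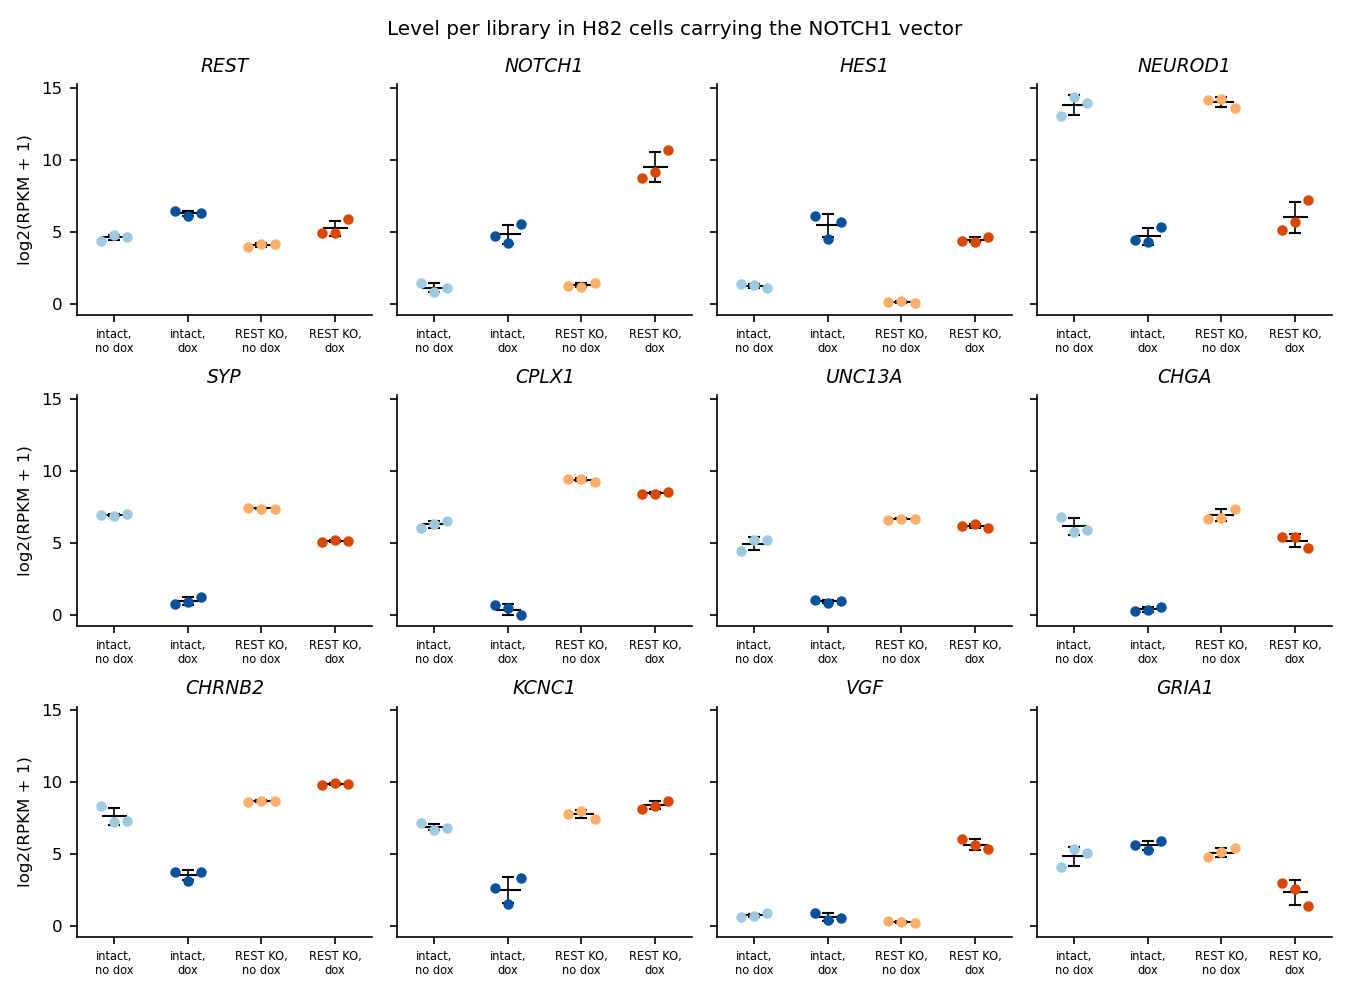
Level of 12 genes, as log2(RPKM + 1) on the vertical axis, in each library of H82 cells carrying the N1ICD vector, by genotype and dox (points are libraries, the bar is the mean and the whiskers the SD, n = 3). SYP, CPLX1, UNC13A, CHGA, CHRNB2 and KCNC1 are low only in intact cells with dox, VGF is high only in REST KO with dox, NEUROD1 falls with dox in both genotypes, and NOTCH1 is highest in REST KO with dox.

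The response to dox was compared between the genotypes in the same model, each response resting on its own 6 libraries. In intact cells 2044 genes (14.7%) rose and 1726 (12.4%) fell with dox, and in *REST* KO cells 2259 (16.2%) rose and 1898 (13.7%) fell. In both genotypes, 1326 of the risen genes (64.9% of the first, 58.7% of the second) rose and 1064 of the fallen (61.6% and 56.1%) fell. Among the REST-type genes 31 of 45 fell in intact cells (median -1.89) and 10 of 45 fell in *REST* KO (median -0.27). All 10 were among the 31. The secretory granule list had medians of -0.03 and 0.76, with 8 genes falling in intact cells and 3 in *REST* KO. Of the 27 transcription factors 16 fell in intact cells (median -2.005) and 13 in *REST* KO (median -0.62), and among 50 cell cycle genes 23 and 18 fell (medians -0.87 and -0.81). Of the 56 mesenchymal and adhesion genes 47 rose in intact cells and 49 in *REST* KO, with medians of 2.59 and 3.88. Without dox, 10 of these 56 (17.9%) were lower and 1 (1.79%) higher in *REST* KO, against 2.85% and 3.39% of all genes. Their median difference between the genotypes was -0.46 without dox and 0.06 with it. The difference between the 2 responses itself, tested as an interaction, was called higher for 1037 of all genes (7.46%) and lower for 759 (5.46%), and among the 45 REST-type genes for 26 (57.8%) and 1. It was called higher for 13 of the 25 secretory granule genes (52%), 10 of the 27 transcription factors (37%) and 19 of the 56 mesenchymal genes (33.9%), and for 1 of the 50 cell cycle genes (2%).

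**Figure D4:**
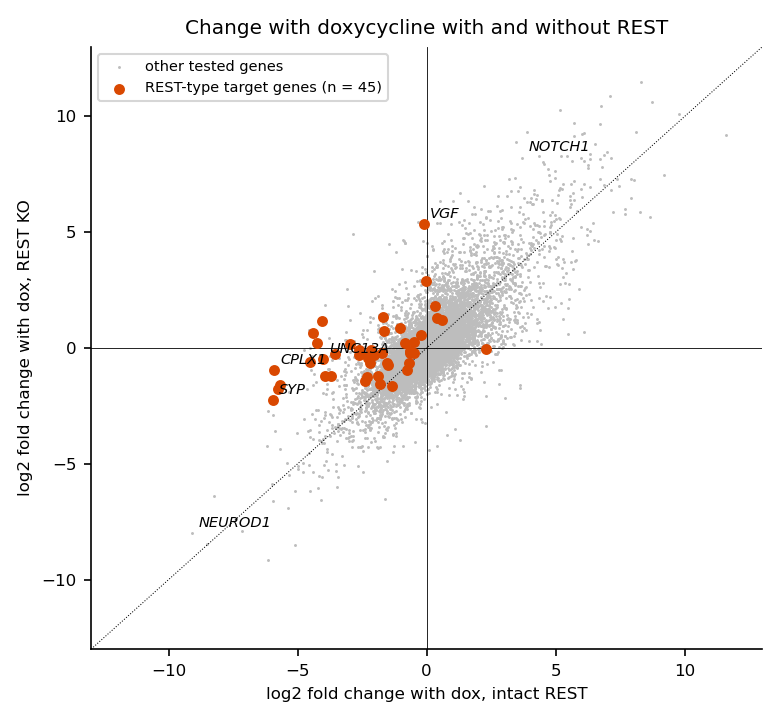
Log2 fold change with dox in intact cells (horizontal axis) against that in REST KO cells (vertical axis) for all tested genes (grey) and the 45 REST-type genes (orange), with a dotted line of equal change. The 45 genes had a median of -1.89 in intact cells and of -0.27 in REST KO, and NEUROD1 falls in both.

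The REST-type genes followed different courses. *SYP* was lowered by dox in both genotypes, but by 5.97 in intact cells and by 2.25 in *REST* KO (mean log2 levels 6.96 and 0.99 against 7.42 and 5.17). *CHGA* likewise dropped by 5.78 and by 1.78, and *STMN2* dropped by 5.67 and by 1.60. *UNC13A*, *CPLX1* and *KCNC1* fell with dox in intact cells (-4.02, -5.93 and -4.39) and were not called with dox in *REST* KO (-0.49, -0.95 and 0.64). *CHRNB2* and *INA* fell in intact cells (-4.04 and -1.68) and rose in *REST* KO (1.16 and 1.36). *VGF*, for a secreted neuropeptide precursor, was near the floor without dox in both genotypes, at 0.64, 0.71 and 0.89 in intact and 0.39, 0.30 and 0.23 in *REST* KO, and rose with dox in *REST* KO alone, to 6.04, 5.65 and 5.33, against 0.94, 0.44 and 0.56 in intact cells with dox. The interaction for *VGF* was 5.47 (SE 0.45, limma adjusted *P* = 1.91e-07). *HCN2* (interaction 5.58) and *CACNG7* (5.37), a regulatory subunit of calcium channels and glutamate receptors, were also low without dox in both genotypes and highest in *REST* KO with dox.

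Without dox, where the 2 genotypes held similar *NOTCH1* mRNA, 471 genes (3.39%) were higher and 396 (2.85%) lower in *REST* KO. Among the 45 REST-type genes 15 (33.3%) were higher and 1 lower, with a median of 0.46. These libraries are not those of the dox comparison. *CPLX1* was 6.06, 6.36 and 6.55 in intact cells and 9.48, 9.49 and 9.27 in *REST* KO, and rose by 3.09 (SE 0.23, limma adjusted *P* = 2.51e-07). *UNC13A* (1.71), *CHGB* (2.14) and *PTPRN* (1.60) were also called higher, while *SYP* (0.46, limma adjusted *P* = 0.182), *CHGA* (0.76, limma adjusted *P* = 0.144) and *KCNC1* (0.87, limma adjusted *P* = 0.0876) were not. Of the 65 genes with an RE1 core without a mismatch, 17 were called higher and 2 lower without dox. Of the 471 genes higher without dox, 195 (41.4%) were also higher with dox, which is 14.9% of the 1312, and 8 (1.70%) were lower with dox. Of the 396 lower without dox, 93 (23.5%) were also lower with it and 41 (10.4%) were higher.

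Values of other *N1ICD* cells with much *NOTCH1* stand beside these. The mean log2 level of the 45 REST-type genes was 1.78 ± 0.11 in intact H82 cells with dox and 4.36 ± 0.10 in *REST* KO with dox (mean ± SD, n = 3 libraries). In the *REST* KO libraries the mean was 4.40, 4.44 and 4.25 in the order of rising *NOTCH1*, with *REST* mRNA at 4.95, 4.95 and 5.89. In the STING_KO libraries with dox, whose *NOTCH1* was 5.97, 7.41 and 7.48 and thus between the 2 groups, the mean was 1.78 ± 0.18. Their *REST* mRNA was 5.71 ± 0.04, from which that of *REST* KO with dox was not called different (-0.45, SE 0.22, limma adjusted *P* = 0.128). Against these libraries 1258 genes (9.05%) were higher and 1035 (7.44%) lower in *REST* KO with dox, including 32 and 1 of the 45 REST-type genes, and *NOTCH1* itself was still 2.59 higher in *REST* KO. *SYP* was 1.31, 1.54 and 0.97 and *CHGA* 0.19, 0.44 and 0.38 in the STING_KO libraries with dox. The STING_KO cells differed before dox as well, since their mean of the 45 genes was 2.11 ± 0.14 without dox, against 3.89 ± 0.06 in intact and 4.47 ± 0.07 in *REST* KO cells. In H69 *N1ICD* cells, another SCLC line with intact *REST*, the mean was 5.05 ± 0.08 without dox and 1.85 ± 0.01 with it, at a *NOTCH1* level of 7.99 ± 0.08 and a *REST* level of 5.51 ± 0.04 with dox. In H524 *N1ICD* cells with dox it was 4.08 ± 0.16 at a *NOTCH1* level of 8.06 ± 0.42 and a *REST* level of 5.98 ± 0.14, against 4.75 ± 0.17 without dox, so a high *NOTCH1* level and *REST* mRNA went with different levels of these genes in different lines.

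**Figure D5:**
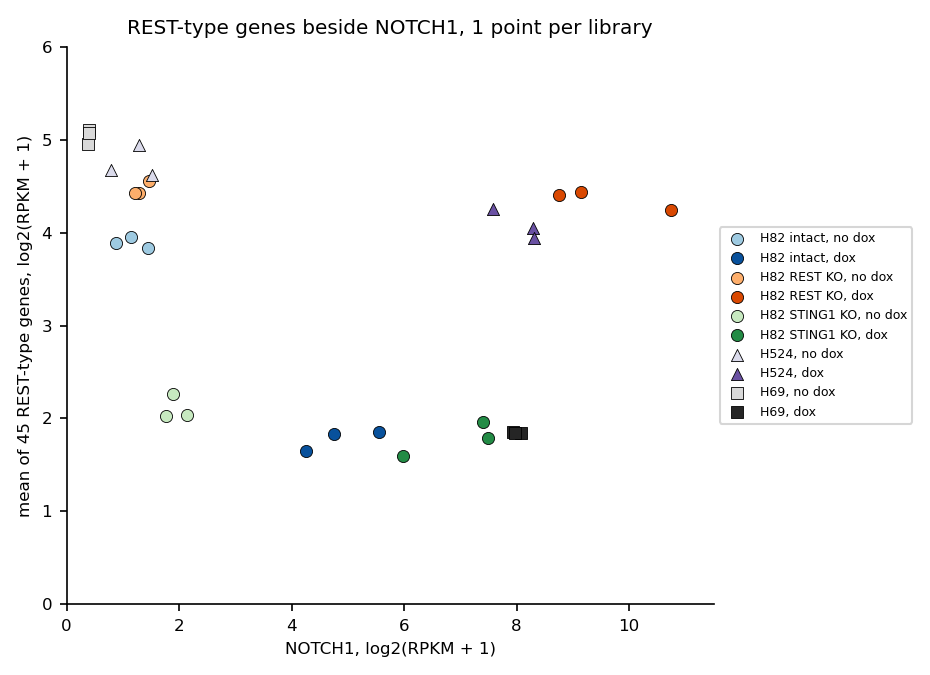
Mean log2 level of the 45 REST-type genes (vertical axis) against NOTCH1 (horizontal axis, log2(RPKM + 1)) in single libraries, circles for H82, triangles for H524 and squares for H69, all carrying the N1ICD vector. The 3 REST KO libraries with dox lie at 4.25 to 4.44, above the intact and STING_KO (STING1 KO in the legend) H82 libraries with dox and the H69 libraries with dox. The H524 libraries with dox lie at 3.94 to 4.25 and so reach the range of the REST KO libraries. NOTCH1 is also highest in the 3 REST KO libraries with dox, and its part in their level was not tested.

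Cells with the opposite change, H524 cells in which dox induced *REST* in place of *N1ICD*, share no library with H82. Their *REST* rose from 4.99 ± 0.08 to 9.01 ± 1.96 (mean ± SD, n = 3), and *NOTCH1* also rose, by 1.38. Dox raised 175 (1.28%) and lowered 80 (0.586%) of 13648 tested genes there. Among the 45 REST-type genes 0 rose and 10 (22.2%) fell, with a median of -0.88. Of the 80 genes that fell, 71 were tested in H82, and 33 of these (46.5%) were higher and 3 (4.23%) lower in *REST* KO with dox, the 33 being 2.81% of the genes higher there that were tested in both lines. Of the 159 that rose in H524 and were tested in H82, 27 (17.0%) were higher and 16 (10.1%) lower. Of all genes tested in H82, 9.44% were higher and 8.21% lower, so the 10.1% is near the share of all genes. The number of calls in H524 depended on single libraries, at 121, 113, 137 and 112 in place of 255 without libraries 35, 36, 38 and 39.

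A set of 12 genes was higher in *REST* KO both with and without dox and fell with *REST* in H524. In falling order of their change with dox, the first 8 were *CPLX1*, *CPLX2*, *MAPK8IP2*, *SRRM3*, *SCRT1*, *TMEM145*, *KCNK12* and *MAPK8IP1*. *MAPK8IP2*, a neuronal scaffold of the JNK kinases, was 3.86, 2.96 and 3.91 in intact cells and 7.19, 7.56 and 7.63 in *REST* KO with dox, a rise of 3.88 (SE 0.31, limma adjusted *P* = 2.71e-08), with 1.36 without dox and -1.11 in H524. *SCRT1*, for a neural repressor of the Snail family, was 0.03, 0.00 and 0.03 against 3.71, 3.36 and 3.32. *KCNK12*, for a two-pore potassium channel subunit, was 0.13, 0.13 and 0.27 against 2.78, 3.00 and 2.77, and is one of the genes whose core is printed above.

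Over all genes, the 10 with the largest rises by the naming rule included, beside those above, *XKR7*, a member of the XK family, at 2.63, 2.29 and 2.85 in intact cells and 8.95, 9.29 and 9.46 in *REST* KO. *WNT6*, a secreted Wnt ligand, was 1.85, 3.79 and 6.28 against 11.06, 11.38 and 10.12, with a wide spread in the intact group. *SOX18*, a factor of endothelial development, was 1.01, 0.32 and 0.56 against 5.82, 6.11 and 7.08, and *HBA2*, whose reads can be shared with its near copy *HBA1*, was 0.75, 0.00 and 0.00 against 5.94, 6.01 and 6.42. The largest fall was that of *MAB21L1* (chromosome 13, 36047556 to 36052901), a gene of eye and brain development, from 7.77, 8.32 and 7.72 in intact cells to 1.64, 1.07 and 1.79 in *REST* KO (log2 fold change -6.44, SE 0.33, limma adjusted *P* = 1.17e-10). *MAB21L1* was already lower in *REST* KO without dox, by 1.55, and fell by 6.51 with dox in *REST* KO and by 1.63 in intact cells.

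Other falls were of genes that dox raised in intact cells. *TYRP1*, for a melanocyte enzyme, was 0.04 ± 0.02 without dox and 5.52 ± 0.24 with it in intact cells, and 0.02 ± 0.02 and 0.63 ± 0.10 in *REST* KO. *MYL7* (-4.61 with *REST* KO), for an atrial myosin light chain, and *L3MBTL4* (-5.41), for a chromatin reader, were likewise at or near 0 without dox in both genotypes and rose with dox in intact cells, and *ENPP2* (-5.61), for the enzyme autotaxin, went from 7.70, 8.37 and 8.25 to 2.78, 2.70 and 2.03. *CTHRC1* (-5.26), a secreted collagen-repeat protein, was also low in *REST* KO without dox (-3.94). It was 0.00 in all 3 STING_KO libraries with dox as well.

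Among 42 tested genes of antigen presentation and interferon response, 5 (11.9%) were higher and 4 (9.52%) lower in *REST* KO with dox, near the 9.44% and 8.21% of all genes. Their median was 0.35 against -0.06, with 32 of the 42 above 0. The interaction was called higher for 8 (19%) and lower for 1 (2.38%), against 7.46% and 5.46% of all genes. *HLA-B* (1.85), *HLA-C* (1.12), *PSMB9* (1.18) and *NLRC5* (1.07) were higher, and *PSME1* (-1.23), *IRF9* (-1.20) and *IFI35* (-1.18) were lower. *OAS3* (1.47), an antiviral enzyme, was higher, and *BST2* (-2.28), another interferon-induced gene, was lower but missed the threshold without library 8, 9 or 33 (-2.10, -2.32 and -1.18). Of 56 mesenchymal and adhesion genes, 15 (26.8%) were higher and 8 (14.3%) lower, both above the 9.44% and 8.21% of all genes, with a median of 0.06, *COL6A2* (3.17) and the factor *ZEB2* (2.70) among those higher and *CDH2* (-2.41), for N-cadherin, and *ITGAV* (-2.32), for an integrin chain, among those lower. Of 50 cell cycle genes 3 (6%) were higher, one of them the inhibitor *CDKN1A* (1.54), and 0 were lower, against the same 9.44% and 8.21%.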

How the data were processed

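RNA-Seq values were those the authors deposited, log2(RPKM + 1), from STAR and RSEM on hg19 with edgeR TMM scaling, for 20516 genes; the counts behind them are not used here. Tool versions are not given in the sources used here. Groups followed the sample labels. limma 3.58.1 (R 4.3.3) with a variance trend was fitted to the 21 H82 libraries on 13903 genes with log2 of at least 1 in at least 3 libraries, and to the H524 libraries likewise. *P* values were two-sided and adjusted (Benjamini-Hochberg) over all tested genes. In data simulated with 200 changed genes the fit was tested before use. The 13 lists and the alternatives were chosen with earlier results of these data known. Named genes were *REST*, *NOTCH1*, up to 4 non-overlapping called members per list and direction, the 2 highest uncalled members per list, the top 10 per direction, and up to 8 genes shared with H524; cell type markers are named too. Genes were placed with GENCODE annotation lifted to GRCh37 (20304 of 20516). Columns of the table were all assigned to samples. A mouse table was not used. Some items are not reported here.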

Additional observations from a re-analysis of the deposited data

Results flagged for a closer look

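The response to dox differed between *REST* KO and intact cells, by the interaction term of the model, in 1037 genes with a higher and 759 with a lower response in *REST* KO. Over all tested genes these are 7.46% and 5.46%. Among the 8 genes named for also falling with *REST* in H524, the interaction passed the threshold on the log2 scale for 7, *CPLX1* at 4.97, *CPLX2* at 5.34, *MAPK8IP2* at 2.52, *SRRM3* at 2.38, *SCRT1* at 1.94, *TMEM145* at 1.91 and *KCNK12* at 1.52. These genes were chosen for being higher in *REST* KO with dox, a difference that enters the interaction, so their count is a description and supports nothing. *NOTCH1* itself differed by 4.53. The labels do not give the days in dox of each group, while the study states the same number of days for both genotypes. The part of *NOTCH1* in the other differences was not tested.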

How the results depend on the processing

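No paired analysis was possible because the labels give no pairing of libraries between groups. The count of genes between *REST* KO and intact cells with dox stayed between 1994 (without library 8) and 2743 (without library 9), against 2453, when 1 library was left out, and no called gene changed direction in any alternative; of the 2453, 1852 (75.5%) were still called without library 8, 2073 (84.5%) without library 33 and 2341 (95.4%) with a pseudocount of 0.1 (3119 calls). Without dox the count of 867 became 1311 with a pseudocount of 0.1, and it was 658 to 948 without 1 library. The interaction count (1796) was 1482 to 1882, that against STING_KO cells with dox (2293) was 2093 to 2310, and that in H524 with *REST* (255) was 112 to 298. Against STING_KO cells 54.9% of calls were higher, 49.4% with quantile normalization. The share of genes with an RE1 core that were called higher, 47.7%, was 56.5% within 2000 and 42.9% within 10000 bases and 23.4% with 1 mismatch allowed, settings chosen after seeing the data. *KDM1A* (-0.01) changed sign under quantile normalization (0.0483) and ranged from -0.12 to 0.056 without single libraries, *SPARC* (0.12) ranged from -0.084 to 0.515, below 0 without library 31 or 32, and *AURKB* (0.35) from -0.12 to 0.734, below 0 without library 33, all 3 uncalled. The cause was not tested. Of 89 called named genes, 75 kept their call in all 6 fits without a library. Genes near 0 hold few reads, and the depth of the libraries is known only relative to each other.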

Other observations

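Gene families in the following were chosen after their values were seen, and are given as counts with no test of the family. Of 31 tested HOX genes, which pattern the body axis, 17 were higher and 0 lower in *REST* KO with dox, against 9.44% and 8.21% of all genes, with a median of 1.12. *HOXB2* was 0.89, 1.60 and 1.30 in intact cells with dox and 5.03, 5.24 and 6.07 in *REST* KO with dox, and was listed at 0 in all 6 libraries of both genotypes without dox. *HOXC12* was 0.27, 0.21 and 0.20 against 4.38, 4.48 and 5.25. *HOXD10* was 2.66, 3.06 and 2.93 against 5.32, 5.67 and 6.75. In each of the 3 library 33, with the most *NOTCH1* and the most *REST* mRNA of the KO libraries, was the highest.

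Of 10 tested keratin genes, of epithelial cells, 0 were higher and 6 lower in *REST* KO with dox, against 9.44% and 8.21% of all genes, with a median of -1.15. *KRT8* was 9.86, 9.81 and 10.01 in intact cells with dox and 5.95, 6.64 and 5.76 in *REST* KO with dox, and *KRT17* was 13.24, 13.08 and 13.09 against 9.65, 9.50 and 8.45. Both rose with dox in both genotypes, *KRT8* by 7.68 in intact cells and 6.01 in *REST* KO and *KRT17* by 11.60 and 9.20. *KRT8* was also lower in *REST* KO without dox, at 0.15, 0.08 and 0.08 against 0.99, 2.65 and 3.02, and *KRT18* likewise with 1.65, 1.45 and 1.27 against 2.47, 3.56 and 3.68. Of 34 tested collagen genes, 15 were higher and 1 lower, against the same 9.44% and 8.21%, with a median of 0.80.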
